A study of Mus musculus with 8 samples.

Results

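The transcription factor genes Spi1, Cebpa, Cebpb, Cebpd, Bhlhe40, Bhlhe41, Bach2, Klf4 and Mitf, which take part in making or keeping the macrophage of the lung air spaces, were followed across 4 groups of sorted mouse lung macrophages. They were found by matching 10 symbols to the array's annotation, keeping probe sets with a single symbol and, where a gene had several, the one with the highest mean. Of the 10 symbols, 9 matched a gene of the 18782 measured, and 1, Car4b, matched no probe set and is not analysed here. Mitf had 2 probe sets and each of the other matched genes had 1.

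The groups were KO day 11, WT day 11, KO day 2 and WT day 2, with 2 arrays each and RNA of cells pooled from 2 mice on each array. KO mice were CD11cCre/PPARg fl/fl, in which a Cre recombinase driven by the CD11c gene's regulatory region cuts the loxP-flanked Pparg gene, so deletion is limited to cells that switch on CD11c. WT mice carried the same PPARg fl/fl alleles without Cre, and all mice were of C57BL/6 background. Day 2 cells were taken as precursors, gated as CD45+ F4/80+ cells with high CD11c. They had either low Siglec-F with high CD11b or an intermediate level of each. At day 11 the sort took Siglec-F+, autofluorescent CD45+ cells with high CD11c, which were CD11b high in KO mice and CD11b low in WT mice. Genotype and gate therefore cannot be told apart at day 11, and the labels used here do not tie either day 2 gate to a genotype. RNA of the gate markers Siglec-F and CD11b differed by genotype at day 2 as well. Siglecf was at 7.13 and 7.46 in KO day 2 against 9.85 and 9.90 in WT day 2. Itgam, the CD11b gene, was at 10.98 and 10.78 in KO day 2 against 7.87 and 7.79 in WT day 2. Genotype and gate may thus be mixed at day 2 too, and the part of the gate was not tested. The gates of the 2 ages differed as well. Age and gate therefore cannot be told apart where day 11 is set against day 2. The same holds where a genotype difference is compared between the ages. Values are signals on the log2 scale, where a difference of 1 is a doubling. In these sorted bulk samples, fewer cells of a type and less RNA per cell cannot be told apart.

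PPARγ is a lipid-sensing nuclear receptor that acts beside the factors studied here in alveolar macrophages. PU.1, encoded by Spi1, and the C/EBP proteins, encoded by Cebpa, Cebpb and Cebpd, open and occupy the enhancers of myeloid genes. BHLHE40 and BHLHE41 are closely related repressors that bind E-box DNA, and mice that lack both form alveolar macrophages that self-renew poorly and lose part of their identity. BACH2 is a repressor best known from lymphocytes, and mice without it accumulate surfactant lipid in the lung. KLF4 promotes monocyte differentiation, and MITF belongs to the MiT/TFE family, which drives lysosomal genes.

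The promoters of Bhlhe41, Klf4, Cebpa and Cebpb are shown because these genes carried called differences between KO and WT cells, described further on, the C/EBP genes lower and Klf4 higher in KO at both ages and Bhlhe41 lower in KO at day 2. Each line holds the 250 bases before the annotated start, read 5′ to 3′ on the gene's strand, from RefSeq on build GRCm38.p6. Capitals mark the E-box letters CACGTG, which BHLHE40, BHLHE41 and MITF are able to bind. The windows are chr6:145865421-145865670 on the minus strand for Bhlhe41, chr4:55532476-55532725 on the minus strand for Klf4, chr7:35119043-35119292 on the plus strand for Cebpa and chr2:167688665-167688914 on the plus strand for Cebpb.
Bhlhe41: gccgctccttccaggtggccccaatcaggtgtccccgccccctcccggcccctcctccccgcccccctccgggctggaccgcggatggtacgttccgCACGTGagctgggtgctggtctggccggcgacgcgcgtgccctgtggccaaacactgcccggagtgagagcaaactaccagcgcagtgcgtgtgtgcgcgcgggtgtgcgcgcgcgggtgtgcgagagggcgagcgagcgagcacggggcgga
Klf4: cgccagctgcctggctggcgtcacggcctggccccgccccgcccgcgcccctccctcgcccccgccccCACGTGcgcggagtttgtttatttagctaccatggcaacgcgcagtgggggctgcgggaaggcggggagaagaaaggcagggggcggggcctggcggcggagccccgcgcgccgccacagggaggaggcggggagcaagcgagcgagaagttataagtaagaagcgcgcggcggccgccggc
Cebpa: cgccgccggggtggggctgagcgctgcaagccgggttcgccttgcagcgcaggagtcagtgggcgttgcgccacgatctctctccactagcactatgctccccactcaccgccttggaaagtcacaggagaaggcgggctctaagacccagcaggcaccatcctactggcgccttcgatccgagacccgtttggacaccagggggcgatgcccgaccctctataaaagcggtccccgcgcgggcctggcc
Cebpb: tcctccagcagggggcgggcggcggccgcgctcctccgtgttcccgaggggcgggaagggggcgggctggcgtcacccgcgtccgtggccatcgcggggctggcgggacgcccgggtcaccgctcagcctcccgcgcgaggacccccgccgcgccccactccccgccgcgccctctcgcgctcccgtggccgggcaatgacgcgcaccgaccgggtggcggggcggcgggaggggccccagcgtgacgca

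CACGTG stood at -153 to -148 from the start of Bhlhe41 and at -182 to -177 from that of Klf4. It occurs in 6.02% of all 32851 promoter windows of this length in the table. Other letters searched on both strands were GAGGAAGT for PU.1 (2.44% of windows), TTGCNNAA for C/EBP (9.56%) and CCACACCC for KLF (3.2%). The PPAR with RXR direct repeat (0.0335%) and the MAF recognition element of BACH and small MAF (0.353%) were searched too. None of these other motifs was in the windows of Bhlhe41, Klf4, Cebpa, Cebpb and Bach2. No match overlapped another. The match among the other windows was a C/EBP core, TTGCGGAA, at -129 to -122 from the first of 3 Mitf starts. Spi1, Cebpd and Bhlhe40 had no window in the promoter table, so no motif was searched for them. A match or its lack describes letters and says nothing of binding.

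Across genes, r between the paired arrays of each group was 0.994 to 0.998. The median was 5.35 on KO day 11 replicate 1, and the arrays agreed at every rank within 0.026. Pparg itself was at 11.32 and 11.36 in KO day 11, 11.18 and 11.13 in WT day 11, 10.55 and 10.74 in KO day 2 and 10.89 and 11.01 in WT day 2, and since the place of its probes relative to the deleted part is not known here, this does not check the deletion. Of 13 measured alveolar macrophage markers, 9 were lower in KO cells at day 2 and 7 at day 11, and none rose at either age (none at unadjusted p under 0.05). These counts include the sort marker Siglecf, called lower at both ages, and the targeted gene Pparg, called lower at day 2 only. The summed signal of the 13 was 14.58 and 14.63 in KO day 11 against 15.15 and 15.16 in WT day 11. At day 2 it was 14.18 and 14.28 in KO against 14.80 and 14.83 in WT. Marco, a scavenger receptor of these cells, was at 5.93 on both KO arrays against 9.46 and 9.44 in WT at day 2. Car4 and Plet1, other markers of the type, were at 11.88 or more on all 8 arrays. Xist was at 3.46 in KO day 11 replicate 1 and 3.38 in WT day 2 replicate 2 and at 9.85 or more on the other arrays. The mean of 3 Y-linked genes was 4.37 in KO day 2 replicate 1 and 7.58 in KO day 2 replicate 2. It was 6.19 in WT day 2 replicate 1 and at 7.44 or more on the remaining arrays, so most arrays with high Xist also carried Y-linked signal. Mouse sex is not in the labels used here, and a fit with the Y-linked signal as a covariate was among the alternatives.

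**Figure D1:**
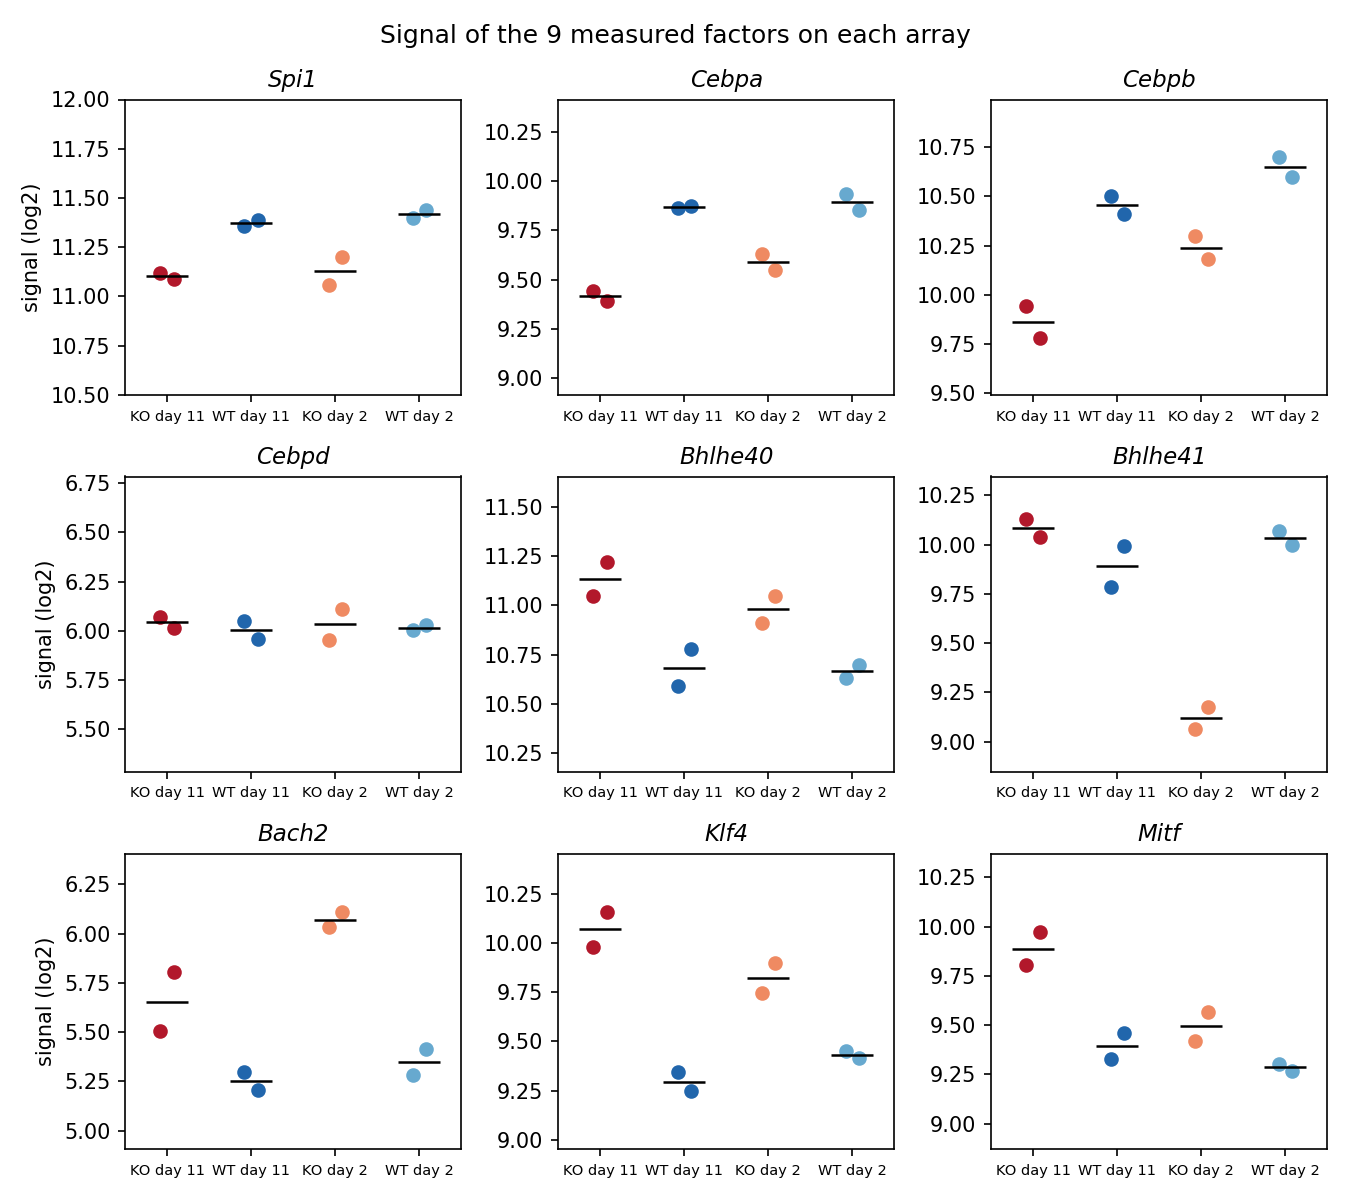
Each panel shows 1 gene, with the signal (log2) on the vertical axis, a point for each of the 2 arrays of a group and a line at the group mean; every panel spans 1.5 log2 units. Bhlhe41 is low in KO day 2 alone, Spi1, Cebpa and Cebpb are lower in KO than in WT at both ages, and Klf4 is higher in KO at both.

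At both ages PU.1 and the C/EBP genes Cebpa and Cebpb were lower in KO than in WT cells, by between 1.21-fold and 1.51-fold, and Cebpd showed no call. Calls here rest on limma with Benjamini-Hochberg adjustment over 18782 genes at an adjusted p under 0.05. Cebpb, which helps control the numbers and differentiation of lung macrophages in mice, was at 9.95 and 9.78 in KO day 11 and 10.50 and 10.41 in WT day 11. At day 2 it was at 10.30 and 10.18 in KO and 10.70 and 10.60 in WT. Both KO arrays lay below both WT arrays of their age. The difference was -0.59 ± 0.08 at day 11 (SE, n = 2 arrays per group, adjusted p = 0.00193) and -0.41 ± 0.08 at day 2 (adjusted p = 0.0107).

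Cebpa, needed to form granulocyte and macrophage precursors, was at 9.44 and 9.39 in KO day 11 against 9.87 on both WT day 11 arrays. At day 2 it was at 9.63 and 9.55 in KO against 9.94 and 9.85 in WT. The groups did not overlap at either age, with differences of -0.45 ± 0.07 (adjusted p = 0.00214) and -0.30 ± 0.07 (adjusted p = 0.0132). Spi1 was at 11.12 and 11.09 in KO day 11 against 11.36 and 11.39 in WT day 11, and at 11.06 and 11.20 in KO day 2 against 11.40 and 11.44 in WT day 2. Its differences were the smallest of those called among the 9 genes at each age, -0.27 ± 0.07 at day 11 (adjusted p = 0.0287) and -0.29 ± 0.07 at day 2 (adjusted p = 0.0201).

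Cebpd, which responds to inflammatory signals in many cells, stayed between 5.96 and 6.11 on all 8 arrays, with overlapping groups. Its difference was 0.04 at day 11 (95% interval -0.13 to 0.21, adjusted p = 0.802) and 0.02 at day 2 (-0.16 to 0.19, adjusted p = 0.912). The deposited table holds no detection call, so a signal this near the array median of 5.35 was not checked against background.

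Single arrays decided some of these calls. At day 2, Cebpa and Cebpb lost theirs without KO day 2 replicate 2 (adjusted p = 0.0657 and 0.0533) or WT day 2 replicate 1 (0.0856 and 0.0757), and Spi1 lost its call without KO day 2 replicate 1 (0.103), WT day 2 replicate 1 (0.071), WT day 2 replicate 2 (0.113) or with the 2 day 2 groups fitted alone (0.0654). At day 11 the calls of Cebpa and Cebpb held in all 17 alternatives, whereas that of Spi1 was lost on leaving out any 1 of the day 11 or WT day 2 arrays (0.0507 to 0.13).

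Genes known to be driven by these factors were counted beside them. Over all genes, 9.34% were called higher and 9.29% lower in KO cells at day 11. At day 2 these shares were 8.86% and 11.2%, and counts of the gene lists are to be read against them. Of 23 measured myeloid target genes of PU.1 and C/EBP, 9 rose and 2 fell in KO cells at day 11, and 12 rose and none fell at day 2 (none at unadjusted p under 0.05 either). The list's median difference was 0.10 at day 11 and 0.32 at day 2, against -0.002 and -0.03 over all genes. Cd14, a co-receptor for bacterial lipopolysaccharide, was higher by 0.69 ± 0.08 at day 11 and by 1.11 ± 0.08 at day 2. Il6, which encodes an inflammatory cytokine, was higher by 0.85 ± 0.18 and 1.26 ± 0.18. Ncf4, a subunit of the phagocyte oxidase, was higher by 0.78 ± 0.06 and 0.82 ± 0.06. Btk, a kinase gene of B cell and myeloid signalling, fell at day 11 (-0.35 ± 0.09). Itgam, which encodes CD11b and had the largest difference in this list at both ages (4.49 ± 0.10 and 3.05 ± 0.10), was a sort marker, and so was Adgre1 (F4/80) at day 2. Csf3r, the receptor for G-CSF and also a neutrophil marker here, differed in direction, at -1.27 ± 0.21 at day 11 and 1.29 ± 0.21 at day 2, and the interaction of genotype and age was called (-2.56 ± 0.29, adjusted p = 0.00443).

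Among 7 measured C/EBP relatives and regulators, 3 rose at day 11 and 2 at day 2, and none fell (1 at unadjusted p under 0.05 at each age). Trib1, whose protein leads C/EBPα to degradation, was at 9.71 and 9.84 in KO day 11 against 9.20 and 9.22 in WT, and at 9.49 and 9.71 in KO day 2 against 8.78 and 8.72 in WT. All KO arrays lay above the WT arrays of their age, by 0.57 ± 0.09 (adjusted p = 0.00283) and 0.85 ± 0.09 (adjusted p = 0.000362). Trib3, a relative of Trib1, had the largest difference of the list at day 11, with 6.91 and 7.32 in KO against 6.34 and 6.02 in WT (0.93 ± 0.15, adjusted p = 0.00329). At day 2 it was at 6.63 and 6.59 in KO against 6.67 and 6.54 in WT, without a call. Cebpe, a factor of granulocyte maturation, was higher by 0.24 ± 0.07 and 0.38 ± 0.07. Of 19 ETS, IRF and RUNX factors that work with PU.1, 4 rose and 3 fell at day 11, and 8 rose and none fell at day 2 (none at unadjusted p under 0.05 either). Irf4, which pairs with PU.1 on DNA and was also counted as a dendritic cell marker, was at 8.02 and 8.92 in KO day 11 against 6.20 and 6.87 in WT day 11, and at 8.66 and 8.88 in KO day 2 against 4.85 and 4.61 in WT day 2. Its differences, 1.93 ± 0.30 and 4.04 ± 0.30, were the largest of this list. Runx3, a RUNX factor of lymphocytes and dendritic cells, was at 9.44 and 9.07 in KO day 2 against 6.08 and 5.95 in WT day 2 (3.24 ± 0.12), and was not among the genes called at day 11. Fli1 was higher by 0.56 ± 0.08 at day 11, and Ets2 by 0.40 ± 0.06 at day 11 and 0.82 ± 0.06 at day 2. Etv3, an ETS repressor, was higher by 0.43 ± 0.08 at day 11 and by 1.25 ± 0.08 at day 2. Elf4, Ikzf1 and Elf1 were lower in KO cells at day 11, with differences of -0.42 ± 0.08, -0.37 ± 0.08 and -0.21 ± 0.06.

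The related E-box repressors Bhlhe40 and Bhlhe41 did not move together. Bhlhe41 was at 10.13 and 10.04 in KO day 11, 9.784 and 9.995 in WT day 11, 9.06 and 9.18 in KO day 2 and 10.07 and 9.998 in WT day 2. The KO day 2 arrays stood apart below all 6 other arrays. It was thus 1.89-fold lower in KO than in WT cells at day 2 (log2 difference -0.92 ± 0.09, adjusted p = 0.000277). At day 11 the KO arrays lay above the WT arrays without a call (0.20, 95% interval -0.01 to 0.40, adjusted p = 0.19). The change of the genotype difference with age was itself called, at 1.11 ± 0.12 (interaction, adjusted p = 0.00425). Bhlhe41 was the single member with a called interaction, against 3.27% of all genes (1.29% higher and 1.99% lower), and it kept that call in all 16 alternatives run, between 1.01 and 1.22 (adjusted p up to 0.0308). Without KO day 2 replicate 1 the interaction was 1.05, and without replicate 2 it was 1.17.

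Bhlhe40 was at 11.05 and 11.22 in KO day 11 against 10.59 and 10.78 in WT day 11, and at 10.91 and 11.05 in KO day 2 against 10.63 and 10.70 in WT day 2. KO arrays lay above WT arrays at both ages. The difference was called at day 11 (0.45 ± 0.09, 1.37-fold, adjusted p = 0.013) and missed the threshold at day 2 (0.31 ± 0.09, adjusted p = 0.0528). The day 11 call was lost without KO day 11 replicate 2 (adjusted p = 0.0821) or WT day 11 replicate 1 (0.0937). The day 2 difference passed with a robust prior that follows the mean signal (adjusted p = 0.022) and with only genes above the array median tested (0.0394).

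BHLHE40 and BHLHE41 also act in the circadian clock, so genes of the clock circuit were read beside them. Of 13 measured, 2 rose and 2 fell in KO cells at day 2, namely Nfil3 (0.59 ± 0.08) and Per1 (0.37 ± 0.07) upward and Cry1 (-0.36 ± 0.08) and Per3 (-0.36 ± 0.09) downward. Nfil3 encodes a repressor of clock output genes, and the period and cryptochrome genes encode the clock's own repressors. At day 11 limma called none of the 13, with 1 higher and 2 lower at unadjusted p under 0.05. Over all genes, 20.1% were called at day 2 and 18.6% at day 11.

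Bach2 was higher in KO cells at both ages. It was at 5.50 and 5.80 in KO day 11 against 5.30 and 5.21 in WT day 11, and at 6.03 and 6.11 in KO day 2 against 5.28 and 5.41 in WT day 2. The groups did not overlap at either age, and KO day 2 held the highest signals. The difference was 0.72 ± 0.11 at day 2 (adjusted p = 0.00207), kept in all 17 alternatives, and 0.40 ± 0.11 at day 11 (adjusted p = 0.0324). The day 11 call was lost without KO day 11 replicate 2, where the difference was 0.25 (adjusted p = 0.15), without WT day 11 replicate 1 (0.0937) or replicate 2 (0.161), without either WT day 2 array (0.0508) and with the 2 groups fitted alone (0.0582). The WT signals lay at the array median of 5.35 and, as for Cebpd, were not checked against background, so these differences give no exact fold.

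Bach2 is abundant in B and T lymphocytes, whose markers were read beside it. Of 9 measured B cell markers, limma called none at day 2 (none at unadjusted p under 0.05), and their summed signal on the log2 scale was 8.81 and 8.84 in KO day 2 against 8.75 and 8.67 in WT day 2. Cd79b, a B cell receptor subunit gene, was the brightest of them at 8.06 and 8.11 in KO day 2 against 8.04 and 7.92 in WT day 2, while Cd79a, Ms4a1 and Pax5 were at 4.75 or less on all 4 day 2 arrays. Of 10 T and NK cell markers 1, Cd3e, rose at day 2 (0.58), with a summed signal of 7.79 on both KO arrays against 7.58 and 7.59 on the WT arrays, and its part in the Bach2 difference was not tested. At day 11, 2 B cell markers fell (Cd79b by 0.69 and Ms4a1 by 0.46), with sums of 7.91 and 7.93 in KO against 8.18 and 8.17 in WT, and 2 T and NK cell markers rose, with sums of 7.79 and 7.71 against 7.53 and 7.58. Of 18 BACH and CNC factors and antioxidant targets, 5 rose and 1 fell at day 11, and 5 rose and none fell at day 2 (2 at unadjusted p under 0.05). Slc7a11, the cystine importer, was higher by 1.26 ± 0.09 at day 11 and by 1.38 ± 0.09 at day 2. Srxn1, which repairs oxidised peroxiredoxin, was higher by 0.80 ± 0.10 and 0.76 ± 0.10. Nfe2, a CNC factor gene, and Blvrb, a biliverdin reductase gene, were higher at day 11 by 0.96 ± 0.13 and 0.59 ± 0.11, and Slc40a1, the iron exporter, at day 2 by 0.89 ± 0.17. Prdm1, a repressor gene that BACH2 holds down in B cells, was higher by 0.76 ± 0.07 at day 2. Hmox1, the heme-degrading enzyme and a target of BACH repression, fell at day 11 (-0.53 ± 0.12).

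Klf4 was higher in KO cells at both ages. It was at 9.98 and 10.16 in KO day 11 against 9.34 and 9.25 in WT day 11, and at 9.75 and 9.90 in KO day 2 against 9.45 and 9.41 in WT day 2. All KO arrays lay above all WT arrays. The difference was 0.77 ± 0.09 at day 11 (1.71-fold, adjusted p = 0.00059), kept in all 17 alternatives, and 0.39 ± 0.09 at day 2 (adjusted p = 0.0158). The day 2 call was lost without KO day 2 replicate 2 (adjusted p = 0.0762), WT day 2 replicate 1 (0.0656) or WT day 2 replicate 2 (0.0941). The interaction of 0.38 (95% interval 0.10 to 0.67) missed the threshold after adjustment (adjusted p = 0.166).

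Of 16 other KLF factors, 2 rose and 2 fell at day 11, and 2 rose and 3 fell at day 2. The share called in either direction over all genes was 18.6% at day 11 and 20.1% at day 2. Klf8 was lower in KO cells, with differences of -1.09 ± 0.09 at day 11 and -0.93 ± 0.09 at day 2, and so was Klf10, which is induced by TGF-β, with -0.86 ± 0.08 and -0.71 ± 0.08. Klf6 was higher by 0.34 ± 0.07 and 0.26 ± 0.07. Klf16 was higher at day 11 (0.42 ± 0.10) and Klf3 at day 2 (0.35 ± 0.09), and Klf5 was lower at day 2 (-0.45 ± 0.11). Klf4 is high in monocytes, and of 9 monocyte markers 4 rose and 2 fell at day 11 and 6 rose and none fell at day 2 (none at unadjusted p under 0.05). Their summed signal was 13.29 and 13.34 in KO day 11 against 12.98 on both WT day 11 arrays, and 13.70 and 13.77 in KO day 2 against 13.03 and 13.01 in WT day 2. Dendritic cell markers summed to 10.69 and 10.93 in KO day 2 against 8.72 and 8.81 in WT day 2, with 6 of 10 higher. Neutrophil markers summed to 11.51 and 11.58 in KO day 2 against 9.67 and 9.65 in WT day 2, with 8 of 11 higher and 1 lower. A large part of that KO sum was Mmp8, a collagenase gene, at 10.50 and 10.79 in KO day 2 against 6.22 and 6.26 in WT day 2. The median differences at day 2 were 0.92 for dendritic cell markers and 1.03 for neutrophil markers. At day 11, 2 of the 10 dendritic cell markers rose and 1 fell, with sums of 9.999 and 10.53 in KO against 9.03 and 9.25 in WT. Those that rose were Irf4 and Clec9a, the latter at 8.78 and 9.28 in KO day 11 against 6.14 and 5.82 in WT day 11. The median difference of the dendritic cell markers at day 11 was 0.005. Of the 11 neutrophil markers, 2 rose and 2 fell, with sums of 11.48 and 11.42 in KO against 9.94 and 9.79 in WT. In KO cells most of that sum was Mmp8, which was at 11.07 and 11.09 in KO day 11 against 8.06 and 7.64 in WT day 11. The list's median signal was 4.86 and 4.89 in KO day 11 against 5.00 and 4.94 in WT day 11, and its median difference was -0.06. The part of these markers in the differences of the 9 factors was not tested.

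Mitf was higher in KO cells at day 11. It was at 9.80 and 9.97 in KO day 11 against 9.33 and 9.46 in WT day 11, and at 9.42 and 9.57 in KO day 2 against 9.30 and 9.27 in WT day 2. KO day 11 lay above the other groups, and KO lay above WT at day 2 by less. The difference was called at day 11 (0.49 ± 0.09, 1.41-fold, adjusted p = 0.00592) and not at day 2 (0.21, 95% interval 0.01 to 0.41, adjusted p = 0.148). The day 11 call was lost without WT day 11 replicate 1 (adjusted p = 0.0521). The other Mitf probe set, dimmer at a mean of 4.83, was higher by 0.41 ± 0.10 at day 11 (adjusted p = 0.0286 over all 28874 probe sets) and showed -0.08 at day 2 (adjusted p = 0.657).

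Of 24 MiT/TFE family and lysosomal target genes, 10 rose and none fell in KO cells at day 11 (1 at unadjusted p under 0.05), with a median of 0.18 against -0.002 over all genes. At day 2, 4 rose and 4 fell, with a median of 0.00. Gpnmb, a membrane glycoprotein gene activated by MITF, was at 11.96 and 11.79 in KO day 11 against 11.13 and 11.03 in WT day 11, higher by 0.79 ± 0.09 (adjusted p = 0.000589). At day 2 it was higher by 0.37 ± 0.09. Rragd, a nutrient-sensing GTPase gene and MiT/TFE target, was higher by 1.03 ± 0.20 at day 11, with 5.76 and 5.02 in KO day 11 against 4.34 and 4.37 in WT day 11. Ctsk, the lysosomal protease cathepsin K, was higher by 0.63 ± 0.06 at day 11 and 0.52 ± 0.06 at day 2. Fnip2, a partner of folliculin, was higher by 0.64 ± 0.07 at day 11 and 0.34 ± 0.07 at day 2, and the family member Tfe3 by 0.24 ± 0.06 at day 11 and 0.44 ± 0.06 at day 2. Mcoln1, a lysosomal calcium channel gene, fell at day 2 (-0.32 ± 0.06), as did Cln3 (-0.31 ± 0.07), Neu1 (-0.25 ± 0.06) and Rragc (-0.22 ± 0.06). Mitf also marks mast cells, and limma called none of 11 mast cell and basophil markers at day 11 (none at unadjusted p under 0.05), with a summed signal of 7.67 and 7.70 in KO day 11 against 7.72 and 7.77 in WT day 11.

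**Figure D2:**
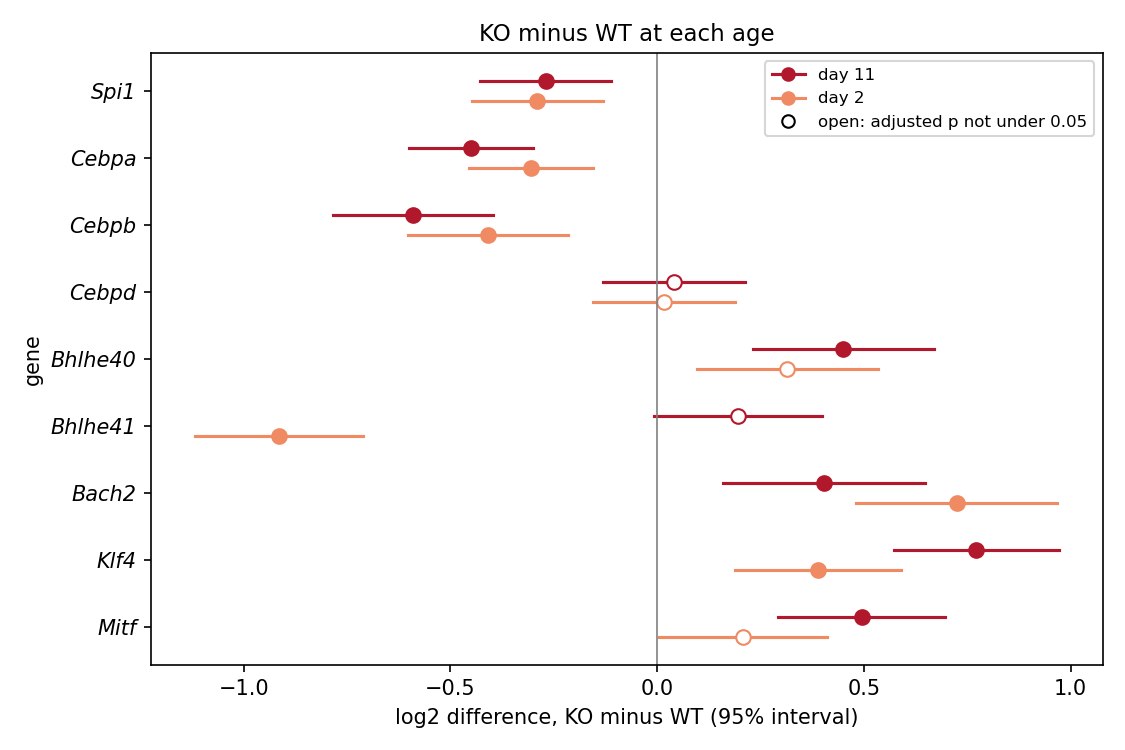
The log2 difference of KO minus WT (horizontal axis) is drawn for each of the 9 genes at day 11 and at day 2, with its 95% interval from the limma fit; filled points are called and open points are not. Bhlhe41 is at -0.92 at day 2 and 0.20 at day 11, and no other gene's points lie on opposite sides of 0.

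Across the set, 7 of the 9 genes were called between KO and WT at day 11, 4 higher and 3 lower, against 18.6% of all genes (9.34% higher and 9.29% lower). At day 2, 6 were called, 2 higher and 4 lower, against 20.1% of all genes (8.86% higher and 11.2% lower). The median difference of the 9 was 0.20 at day 11 and 0.02 at day 2, against -0.002 and -0.03 over all genes, and the directions were mixed. The arrays of the 2 genotypes did not overlap for 8 of the 9 at each age, a state met by 56.3% of all genes at day 11 and 58.2% at day 2. Spi1, Cebpa and Cebpb were called lower and Bach2 and Klf4 higher at both ages. The day 11 count was 3 without WT day 11 replicate 1 and 4 without KO day 11 replicate 2, and the day 2 count was 2 without WT day 2 replicate 1, 3 without KO day 2 replicate 2 and 4 without WT day 2 replicate 2.

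The plot of adjusted p by setting shows which calls rested on single arrays. Bhlhe41 and Bach2 at day 2 and Cebpa, Cebpb and Klf4 at day 11 stayed under the threshold in all 17 alternatives. The remaining calls crossed it in 1 to 6 of them.

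**Figure D3:**
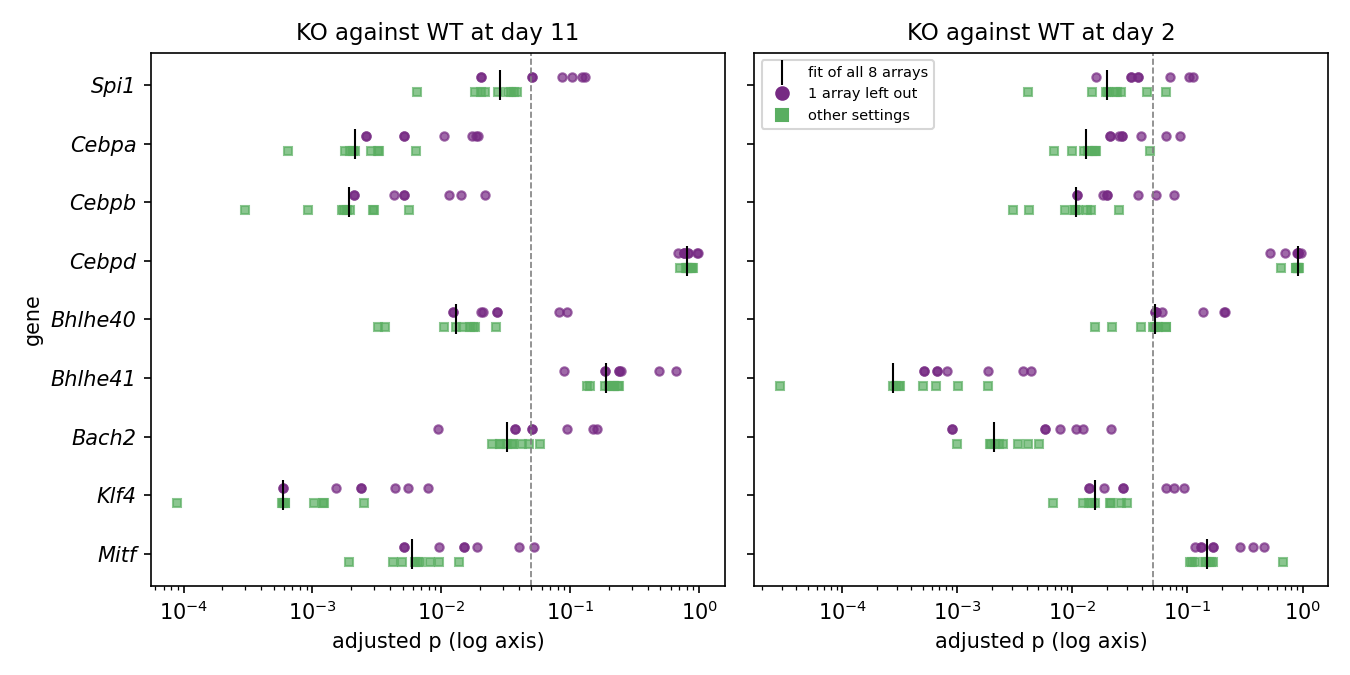
For KO against WT at day 11 (left) and day 2 (right), the adjusted p of each gene is on a log axis, with a bar for the fit of all 8 arrays, circles for fits without 1 array and squares for the other alternatives; the dashed line is at 0.05. Bhlhe41 at day 2 lies left of the line throughout, whereas Spi1 has marks on both sides at both ages.

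The second question was how the factors differed between day 11 and day 2, where the sort gate differed along with age. In WT cells limma called none of the 9 between day 11 and day 2, against 5.3% of all genes (2.81% higher and 2.49% lower), and 1, Cebpb, had an unadjusted p under 0.05 (difference -0.20, adjusted p = 0.23). The differences ran from -0.20 for Cebpb to 0.11 for Mitf. The count of 0 held in all 17 alternatives. The arrays of the 2 ages did not overlap for 5 of the 9, against 53.9% of all genes. The 95% intervals of the WT differences included -0.35 to 0.06 for Bhlhe41 and -0.34 to 0.06 for Klf4.

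In KO cells 4 of the 9 were called between day 11 and day 2, 2 higher and 2 lower, against 15.5% of all genes (8.81% higher and 6.71% lower). The arrays of the 2 ages did not overlap for 6 of the 9, against 53.8% of all genes. Bhlhe41 was 1.95-fold higher at day 11 (0.97 ± 0.09, adjusted p = 0.000511), kept in all 17 alternatives. Mitf was higher by 0.40 ± 0.09 (adjusted p = 0.0208). Cebpb was lower at day 11 (difference -0.38 ± 0.08, adjusted p = 0.021), and so was Bach2 (-0.42 ± 0.11, adjusted p = 0.0341). The calls of Mitf and Cebpb were lost without KO day 11 replicate 2 (adjusted p = 0.117 for each) or KO day 2 replicate 1 (0.107 for each), and with the Y-linked covariate (0.116 and 0.126) or the 2 groups fitted alone (0.0735 and 0.0718). That of Bach2 was lost in 9 of 17 alternatives, including the absence of KO day 11 replicate 1 (difference -0.27, adjusted p = 0.136), KO day 2 replicate 1 (0.0834), KO day 2 replicate 2 (0.105) or any single WT array (0.0539 to 0.0565). Without KO day 2 replicate 1, Bhlhe41 alone kept its call. The differences of Cebpa (-0.17, adjusted p = 0.126) and Klf4 (0.25, adjusted p = 0.103) missed the threshold.

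**Figure D4:**
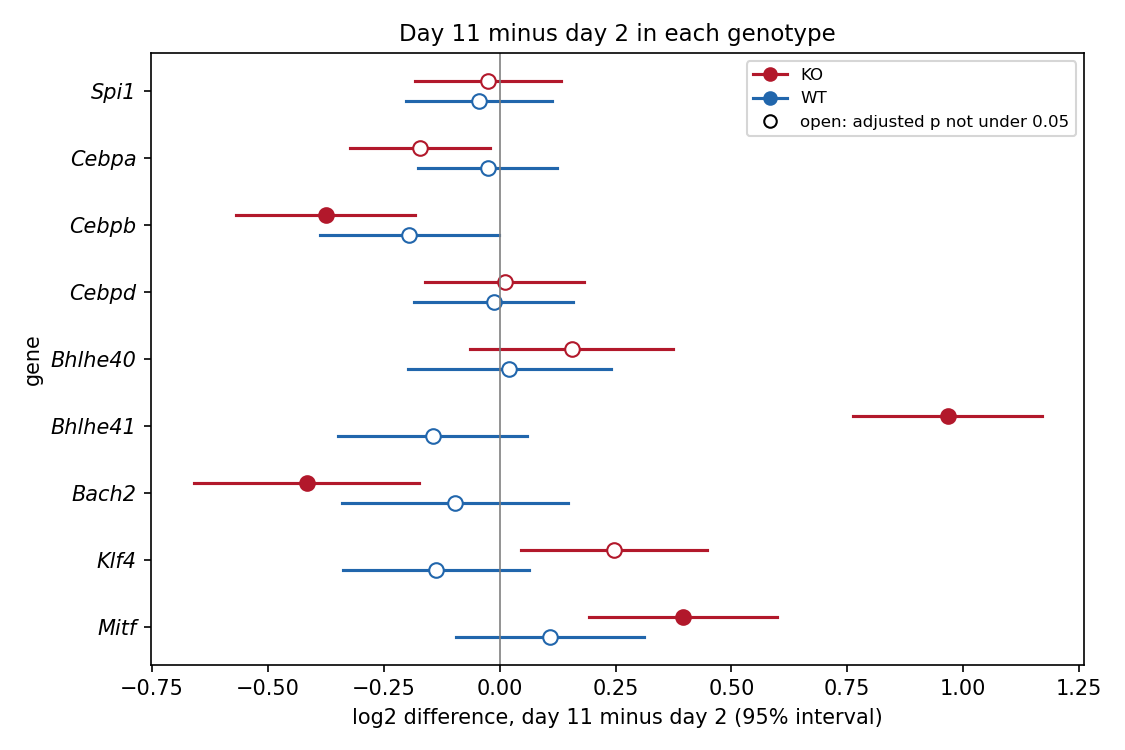
The log2 difference of day 11 minus day 2 (horizontal axis) is drawn for each gene in KO and in WT cells, with its 95% interval; filled points are called and open points are not. Bhlhe41 in KO cells, at 0.97, is the point farthest from 0, and no WT point is filled.

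Over the 4 groups, the order of mean signals was WT day 2, WT day 11, KO day 2 and KO day 11 from high to low for Spi1, Cebpa and Cebpb, and neighbouring groups of 1 genotype were not called apart except KO day 11 and KO day 2 for Cebpb. For Klf4 and Bhlhe40, KO day 11 was highest, followed by KO day 2. Neither the KO groups nor the WT groups of these 2 genes were called apart by limma. For Bhlhe40 the KO difference between day 11 and day 2 was 0.155 (adjusted p = 0.351), with overlapping arrays. Bach2 was highest in KO day 2, followed by KO day 11 and the WT groups. Over the 8 arrays, Cebpa and Cebpb had r = 0.96, Cebpa and Klf4 -0.96, Cebpb and Mitf -0.97 and Bhlhe40 and Klf4 0.93, whereas Bhlhe40 and Bhlhe41 had -0.16. These values describe 8 arrays that fall into 4 groups.

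The genes closest in pattern were taken from 1388 genes whose group means span at least 1 log2 unit, by r over the 8 arrays. They were Mcm6, Lig1 and Bub1 for Cebpb (r = 0.996, 0.995 and 0.993), Brca1, Knl1 and Ezh2 for Cebpa (0.989, 0.989 and 0.988) and Prss30, Dhrs7b and Map3k8 for Spi1 (0.988, 0.986 and 0.982). Closest to Klf4 were Ccdc65, Ttll1 and Fkbp11 (0.997, 0.994 and 0.991), to Bach2 Hs3st3b1, Errfi1 and Nfatc2 (0.984, 0.982 and 0.981) and to Mitf Ercc6, Tnfrsf26 and Rab11fip4 (0.978, 0.977 and 0.975). Bhlhe40 was closest to Cxcl1, F2rl2 and Pls3 (0.972, 0.971 and 0.960), and Bhlhe41 to Mgll, Phlda3 and Mak (0.940, 0.894 and 0.894). Mgll, a monoacylglycerol lipase, was at a group mean of 9.96 in KO day 11, 9.96 in WT day 11, 8.31 in KO day 2 and 9.83 in WT day 2. For Cebpd, whose signal spans 0.16 over all arrays, the best r was 0.596, with the Y-linked gene Eif2s3y.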

How the data were processed

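RNA of sorted lung macrophages was measured on 8 Affymetrix arrays, labelled by the whole-transcript method per the labels' protocols. The authors deposited 1 log2 value per probe set and array, for 28874 probe sets, made by RMA. Per the submitters' processing notes R 2.15.2 was used. RMA adjusts background, brings arrays to 1 distribution and combines probes, so a shift of all genes cannot be seen. Columns agree at every rank within 0.026. No detection calls or scanner files were used here, and 2 arrays per group limit the precision.

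The platform annotation gave 21159 probe sets with 1 symbol, 1881 with several and 5834 with none. The brightest single-symbol probe set stood for each of 18782 genes. Limma 3.58.1 in R 4.3.3 fitted 1 mean per group over all 8 arrays (4 residual and 3.77 prior degrees of freedom), with no replicate block, and p-values were adjusted over all 18782 genes in each of 5 contrasts. The fit was tested on simulated data. Values are given with the SE of the fit. P-values measure the spread between pools of 2 mice. Alternatives were other priors, groups, scalings, filters, probe set rules, a sex-linked covariate and each array left out.

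The members and gene lists were chosen with earlier results of these data known. All members are named, and of each pathway list between KO and WT the called genes with the largest differences, at most 4 per direction. The genes closest in pattern are the 3 with the highest r, leaving out gene models and immunoglobulin, receptor and small RNA genes. Python 3.11.15 with matplotlib 3.10.9 drew the figures.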

Additional observations from a re-analysis of the deposited data

Results flagged for a closer look

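Bhlhe41 differed between KO and WT cells in a way that changed with age, and the sort gates of the 2 ages differed too. The difference was 0.20 at day 11 and -0.92 at day 2, and the interaction of genotype and age was 1.11 on the log2 scale (limma, adjusted p = 0.00425, 2 arrays in each of 4 groups). Both KO day 2 arrays lay below all 6 others.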

How the results depend on the processing

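Of 45 differences of single genes (9 genes in 5 contrasts), none changed sign with a call in any of the 17 alternatives. Of 756 refitted differences, 710 kept direction and side of the threshold or stayed uncalled, 43 lost a call and 3 gained one, and 18 uncalled differences changed sign. Leaving out 1 array moved the genes called between KO and WT to between 2059 and 3760 at day 11 (3500 with all) and between 2223 and 3605 at day 2 (3774 with all), and the members called to between 3 and 7 and between 2 and 6. It moved the genes called between day 11 and day 2 to between 1541 and 2985 in KO (2915 with all, members 1 to 3) and between 233 and 1292 in WT (996 with all), and the interaction to between 197 and 942 (615 with all). With an array left out, the lone array of its group is assumed to vary like the other groups. With only the 2 groups compared, the calls between day 11 and day 2 were 1466 in KO, with 1 member, and 1581 in WT. With the Y-linked covariate they were 1463 in KO, with 1 member, and the interaction had 401. Why these counts moved was not tested, beyond the fewer arrays of the smaller fits. With the replicate number as a replicate block, which the labels do not tie to a litter or day, 3415 genes were called at day 11 and 3692 at day 2, and Bhlhe40 at day 2 passed (adjusted p = 0.0157). The deviations of replicate 1 from its group mean correlated between groups with r from -0.08 to 0.25. Dim probe sets such as those of Cebpd and Bach2 limit what small differences can be seen.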

Other observations

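MAF and MYC factors, which govern whether macrophages divide, were also read. Of 10 measured, 2 rose and 1 fell in KO cells at day 11, and 3 rose and 1 fell at day 2. Maf was at 6.54 and 5.96 in KO day 11 against 5.34 and 5.58 in WT day 11, and at 8.56 and 7.80 in KO day 2 against 5.74 and 5.83 in WT day 2. Mxd1, an antagonist of MYC, was higher in KO at day 2 by 1.05 ± 0.11, and its genotype difference changed with age (interaction -1.27 ± 0.16, adjusted p = 0.00689). Max, the partner of MYC, was higher at day 2 by 0.27 ± 0.07. Mafg was higher by 0.41 ± 0.08 and Myc by 0.37 ± 0.10 at day 11. Maff was lower at both ages, with differences of -1.03 ± 0.12 at day 11 and -0.54 ± 0.12 at day 2. Between day 11 and day 2, 4 of the 10 fell in KO cells and none rose (1 at unadjusted p under 0.05), with a median of -0.27 against 0.01 over all genes.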
